A study of Mus musculus with 36 samples.

Results

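Mouse embryonic fibroblasts held for 2 h at 600 mOsm were compared with the same cells held for 2 h at 500 mOsm, the step between the mildest and the middle strength of hyperosmotic stress in the series. The members were the libraries labelled with these osmolarities and this time: at each osmolarity 2 libraries of ribosome footprints (Ribo-seq) and 2 of cytoplasmic RNA, 8 of the 36 libraries in all. All cells were fibroblasts of the strain C57BL/6J, unmodified as far as the labels say, in serum-containing medium to which sorbitol, a sugar alcohol, had been added to raise the osmolarity. Each sample pooled several plates of cells, and nothing in the labels says whether replicates 1 and 2 were separate cultures, so a p-value here measures only how far these libraries vary, which may be technical variation. Unstressed cells, cells at 700 mOsm for 15 min or 2 h, and cells returned to normal medium after 2 h at 700 mOsm are used below as points of reference.

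Hyperosmotic medium draws water out of cells, which shrink and concentrate their salts and proteins. Cells answer by slowing the start of protein synthesis and, if the stress can be borne, by making transporters and enzymes that let them take up or synthesise small organic solutes in place of salt. Ribosome profiling reads the short stretches of mRNA covered by ribosomes, and the ratio of footprints to RNA of a transcript is called its translational efficiency.

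Footprints were deposited as RPKM, reads per length of coding sequence and library total, and RNA as FPKM, the same measure over the whole transcript. Both were divided by a library factor, the median ratio of abundant transcripts to their geometric mean over the 18 libraries of an assay. Changes are therefore relative, and the total amount of protein synthesis cannot be read from them. The text calls the divided values scaled RPKM and scaled FPKM. A change is the difference of log2(scaled value + 1), 600 minus 500 mOsm, which understates the change of low transcripts. With these factors the median footprint change was -0.24, and with factors from the 4 compared footprint libraries alone -0.17. A change of 0 is therefore not the level of the typical transcript. Transcripts carry Ensembl identifiers without gene names in these lists. Of the identifiers, 0 matched the name tables used here, so the fibroblast markers and pathway lists could not be applied, and the label of the cells was not checked against markers. Transcripts are described below by their size, level and behaviour, with 4 identifiers in all. As these are bulk samples, fewer cells of a type and less RNA per cell cannot be told apart.

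The footprint libraries held 4294578 and 4315137 reads on listed transcripts at 500 mOsm and 2696435 and 2278281 at 600 mOsm, and the RNA libraries 20980249 to 38074467. Of 37508 listed values in the 4 footprint libraries, 813 came to exactly 5 reads and 25 to fewer, and the coding length of transcripts with such lower values was treated as unsettled. An unlisted transcript is therefore taken to have had at most 4 reads, an inference from the values that may not hold for all. A transcript of 863 codons had 77 reads in replicate 2 of 500 mOsm and was unlisted in replicate 1. The 2 footprint libraries of each osmolarity were close to what sampling noise alone gives: a chi-square of their reads per transcript was 1.058 per degree of freedom at 500 mOsm and 1.101 at 600 mOsm, against 7.53 and 6.33 for the RNA pairs. Each footprint pair was therefore averaged and counted as 1 sample. A footprint or efficiency difference here has no p-value and is called at 2-fold. The RNA was tested with n = 2 in limma, at a Benjamini-Hochberg adjusted p under 0.05, and "rose" and "fell" are used only of RNA past that threshold.

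At the higher osmolarity ribosome footprints were lost from many transcripts and gained on few, while RNA moved far less. Of 8849 transcripts compared, 1677 (19.0%) had at least 2-fold lower footprint values at 600 than at 500 mOsm and 122 (1.38%) at least 2-fold higher values. The log2 changes had a median of -0.24, with quartiles of -0.81 and 0.19, and 5601 transcripts lay below 0. Their SD across transcripts was 0.75, against 0.23 for the RNA of 9275 transcripts. Among the 5845 transcripts with at least 200 footprint reads over the 4 libraries, 900 (15.4%) were lower and 42 (0.719%) higher, with a median of -0.13. Between the 2 libraries of the same osmolarity, 1 of these well-read transcripts differed 2-fold at 500 mOsm and 8 at 600 mOsm. Over all 8849 transcripts, 91 differed so at 500 mOsm and 388 at 600 mOsm, beside the 122 called higher between pair means. Both 600 mOsm libraries were below both 500 mOsm libraries in 1654 of the 1677 lower transcripts and in 53.1% of all 8849, a separation that a 2-fold difference of pair means nearly fixes.

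Part of the loss lay at the edge of what a footprint library lists. At 500 mOsm 550 transcripts were listed in both libraries and in no 600 mOsm library, while the reverse held for 22. The 550 were shallow, with a median of 20 reads over both 500 mOsm libraries, and 4 had at least 100. Had they kept their level, 246 of the 546 with a known coding length would have had fewer than 5 reads in the shallower 600 mOsm library, and 81 at least 10. Of the 1677 transcripts called lower, 245 were unlisted in both 600 mOsm libraries, and 1 of these was well read. Setting every unlisted value to 4 reads, a setting chosen after seeing the data, left 1405 lower and 115 higher.

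RNA changes were common but small. In RNA, 592 of 9275 transcripts (6.38%) rose and 964 (10.4%) fell, with median log2 changes of 0.30 and -0.37. Only 47 rose (0.507%) and 136 fell (1.47%) by at least 1.5-fold, and 8 rose (0.0863%) and 28 fell (0.302%) by at least 2-fold. The counts depended on each library: without replicate 1 of 600 mOsm 238 rose and 557 fell, and without replicate 2 239 and 561. Without replicate 1 of 500 mOsm 376 rose and 612 fell, and without replicate 2 369 rose and 724 fell. In these 4 fits 0 of the called transcripts changed sign. That was fixed in advance, because in all 592 risen and 964 fallen transcripts the libraries of the 2 osmolarities did not overlap. Over all 9275 tested, 28.6% stood apart upward and 29.4% downward.

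Transcripts with fallen RNA had lower footprints more often than the others, though many transcripts had lower footprints without an RNA call. The plot of footprint against RNA changes shows a cloud that was tall and narrow and tilted to the lower left. Across the 8446 transcripts measured in both assays, Spearman's rho of the 2 changes was 0.43, a description over transcripts that share libraries and scaling factors. Over the same transcripts rho of footprint and RNA level was 0.68 at 500 mOsm and 0.61 at 600 mOsm. Of the 890 transcripts with fallen RNA and a footprint value, 394 (44.3%) had 2-fold lower footprints, and their median footprint change was -0.89. Of the 554 with risen RNA, 37 (6.68%) had 2-fold higher and 32 (5.78%) 2-fold lower footprints, with a median of 0.21. Seen from the footprints, 1203 of the 1629 transcripts with 2-fold lower footprints and an RNA value (73.8%) passed the RNA test in no direction, against 82.9% of all 8446, and 24.2% had fallen RNA, against 10.5%. Translational efficiency was at least 2-fold lower in 1412 of 8446 transcripts (16.7%) and at least 2-fold higher in 45 (0.533%). Among well-read transcripts it was lower in 801 of 5787 (13.8%) and higher in 22 (0.380%). The count of higher efficiency was small and moved with the settings, from 22 to 114.

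**Figure D1:**
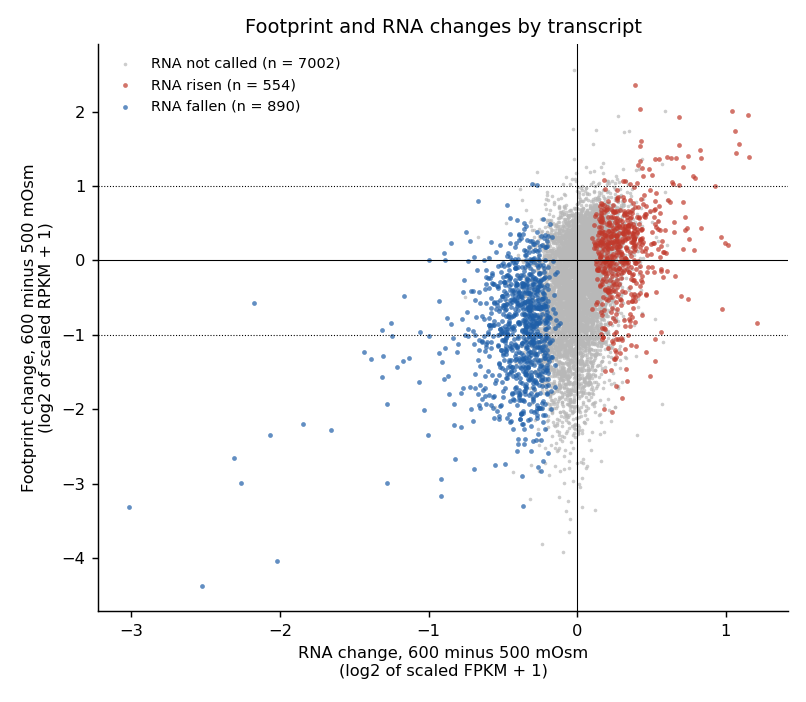
Footprint change (vertical axis, log2 of scaled RPKM + 1, pair means) against RNA change (horizontal axis, log2 of scaled FPKM + 1, n = 2 per condition), 600 minus 500 mOsm, for 8446 transcripts. Points are coloured by the limma call on RNA (554 risen, 890 fallen, 7002 not called) and dotted lines mark a 2-fold footprint change; the cloud reaches further down than up, and the fallen RNAs lie mostly below 0.

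The median footprint change went down with coding length, from above 0 on short coding sequences to below 0 on long ones. The median footprint change was 0.32 for the 182 transcripts with up to 100 codons and 0.11 for the 1099 with 100 to 200 codons. It was -0.15 at 200 to 400 codons, -0.32 at 400 to 800, -0.54 at 800 to 1600 and -0.53 in the 371 transcripts with over 1600 codons. Comparing single libraries in the 4 possible pairings moved the first median between 0.26 and 0.34 and the last between -0.52 and -0.50. Past 2-fold, losses outnumbered gains in the short classes too, with 6 higher and 16 lower up to 100 codons and 17 higher and 133 lower at 100 to 200. The share with 2-fold lower footprints was 8.79% in the shortest class, 20.1% at 400 to 800 codons and 24.0% at 800 to 1600. Among well-read transcripts the gradient was steeper, from a median of 0.38 in the shortest class to -0.57 in the longest, where 81 of 286 were 2-fold lower and 2 higher. The 2 longest classes lay within 0.01 of each other over all transcripts, so no order between them can be read.

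The median RNA change followed coding length in the same direction on a much smaller scale. It went from 0.08 in the 177 tested transcripts with up to 100 codons to -0.09 in the 385 with over 1600. Of the shortest, 20 rose (11.3%) and 7 fell (3.95%), and of the longest 43 rose (11.2%) and 98 fell (25.5%). Over all 9275, 6.38% rose and 10.4% fell. The share that fell thus differed between the ends, and the share that rose did not. Taking the RNA change off left an efficiency gradient from a median of 0.21 to -0.43. The 230 tested transcripts that appear in no footprint list had a median RNA change of 0.08. Of these, 16 had risen (6.96%, against 6.38% of all 9275) and 8 had fallen (3.48%, against 10.4%).

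**Figure D2:**
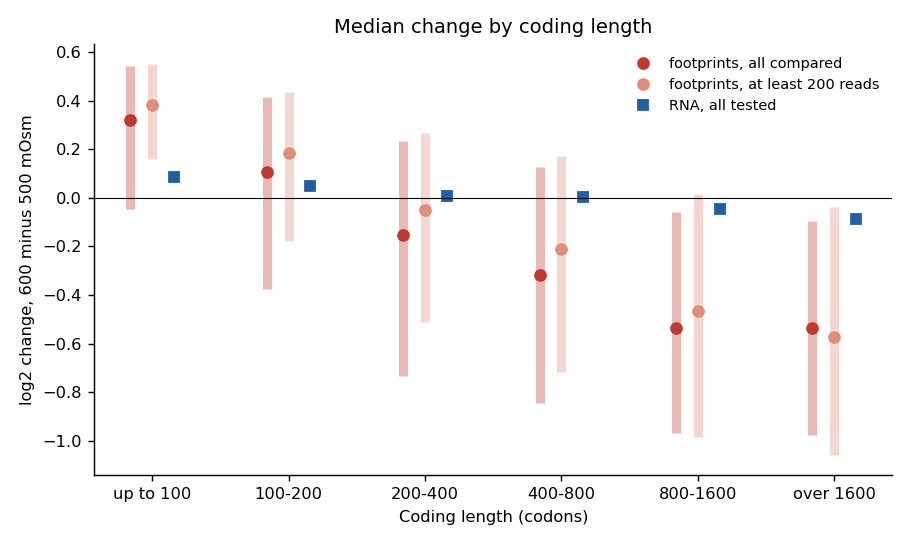
Median log2 change, 600 minus 500 mOsm, by coding length class, for footprints of all compared transcripts (red circles), footprints of transcripts with at least 200 reads (light circles) and RNA (blue squares); bars span the quartiles of the footprint changes. Footprint medians fall from 0.32 in the shortest class to -0.53 in the longest, while those of RNA stay between 0.08 and -0.09.

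The same gradient stood in the reads themselves, without any scaling factor or pseudocount. Transcripts with up to 100 codons took 3.48% and 3.49% of the footprint reads in the 500 mOsm libraries and 4.95% in both 600 mOsm libraries. Those with 100 to 200 codons went from 17.8% in both to 21.5% in both. At 800 to 1600 codons the shares were 12.8% in both libraries at 500 mOsm and 10.1% and 10.2% at 600 mOsm. Over 1600 codons they were 3.85% and 3.87%, then 2.95% and 2.97%. In every one of these classes the libraries of the 2 osmolarities lay clearly apart, and exact 95% binomial intervals, which cover counting error only, were at most 0.121 percentage points wide. The shares at 500 mOsm were nearer to those of unstressed cells than to those at 600 mOsm, the unstressed values being 3.02% and 3.03% for the shortest class and 14.0% and 13.9% for 800 to 1600 codons. At 700 mOsm for 2 h they lay beyond those at 600 mOsm, at 7.74% and 7.76% and at 6.75% and 6.73%. The share of RNA reads on the shortest class changed little, from 1.58% and 1.59% to 1.70% and 1.67%.

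**Figure D3:**
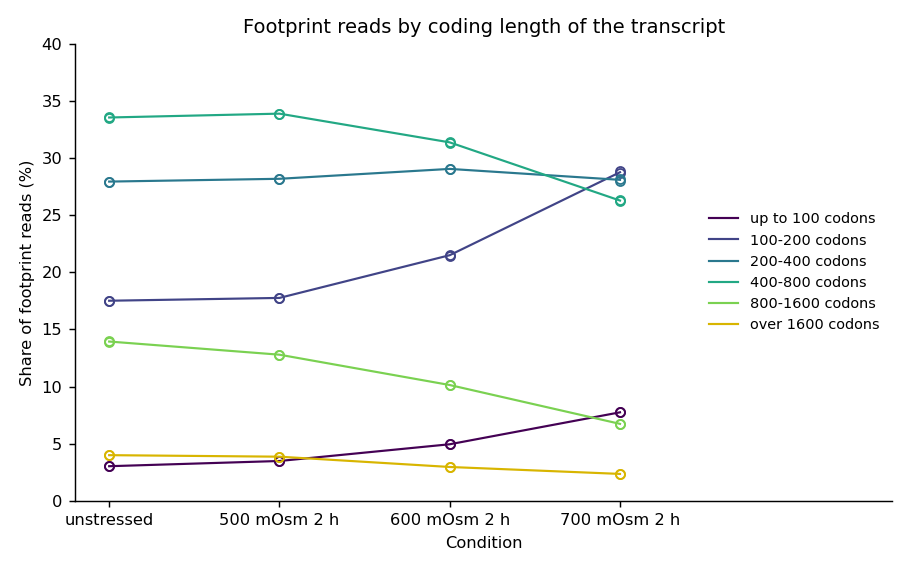
Share of footprint reads (percent of the reads on listed transcripts) by coding length class in unstressed cells and at 500, 600 and 700 mOsm for 2 h. Open circles are libraries, which overlap at most points, and lines join pair means; the 2 shortest classes take more of the reads at 600 than at 500 mOsm and the 3 classes over 400 codons take less.

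The length of the transcript outside its coding sequence also separated both the RNA and the footprint changes. Of 1999 tested transcripts with at most 500 nt outside the coding sequence, 233 rose (11.7%) and 69 fell (3.45%). Of the 542 with over 4000 nt, 10 rose (1.85%) and 128 fell (23.6%). The median RNA change went from 0.08 to -0.12 between these classes and the median footprint change from -0.01 to -0.48. Coding length kept its gradient within both ends of this range. With at most 500 non-coding nt, the median footprint change was 0.25 up to 200 codons and -0.41 at 800 to 1600. With over 2000 non-coding nt, it was 0.00 and -0.63.

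Level and efficiency in unstressed cells, which share no library with the comparison, also separated the transcripts. The 466 transcripts with over 160 scaled FPKM of RNA in unstressed cells had a median footprint change of 0.05, and 9.23% were 2-fold lower. The 1682 transcripts at 20 to 40 scaled FPKM had a median of -0.38, and 24.0% were 2-fold lower. The 1213 transcripts with at most 5 scaled FPKM stood at -0.07 with 12.4% lower, or at 0.07 in the 390 well-read ones, so the change did not follow the level in 1 direction. In RNA 20.7% of the 493 most abundant tested transcripts rose, with a median change over the class of 0.09. By unstressed efficiency, the 779 transcripts with the most footprints per RNA (over 2 on the log2 scale) had a median footprint change of 0.11, with 8.47% 2-fold lower. Those with efficiencies of -1 to 0 had a median of -0.56, with 26.3% lower. The 416 transcripts under -1 had a median of -0.37, which was -0.14 in the 97 well-read ones, so the lowest class did not continue the order.

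The change between 500 and 600 mOsm resembled the response to the strongest stress after only 15 min. That response, 700 mOsm for 15 min against unstressed cells, shares no library with the comparison. In it, 1522 of the 8849 transcripts (17.2%) had 2-fold higher and 4151 (46.9%) 2-fold lower footprints. The 15 min libraries were shallow, with 822729 and 1068357 footprint reads. They listed 6193 and 6716 transcripts, against 10421 and 10458 in unstressed cells. Unlisted values count as 0, so part of these lower values can come from depth. The 2891 transcripts that were at least 4-fold lower after 15 min had a median change of -0.77 between 500 and 600 mOsm, and 1088 of them (37.6%) were 2-fold lower. The 338 that were more than 4-fold higher after 15 min had a median of 0.44. Of these, 18 were 2-fold higher (5.33%, against 1.38% of all 8849) and 39 lower (11.5%, against 19.0%). Across all 8849 transcripts Spearman's rho of the 2 footprint changes was 0.54, and 0.59 over the 5845 well-read ones, as a description over transcripts that share coding length. RNA showed a rho of 0.54 over 9275 transcripts. Of the 182 transcripts with 2-fold lower RNA after 15 min, 100 fell between 500 and 600 mOsm (54.9%) and 1 rose. Of the 48 with 2-fold higher RNA, 11 rose (22.9%) and 1 fell. Over all 9275, 10.4% fell and 6.38% rose.

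**Figure D4:**
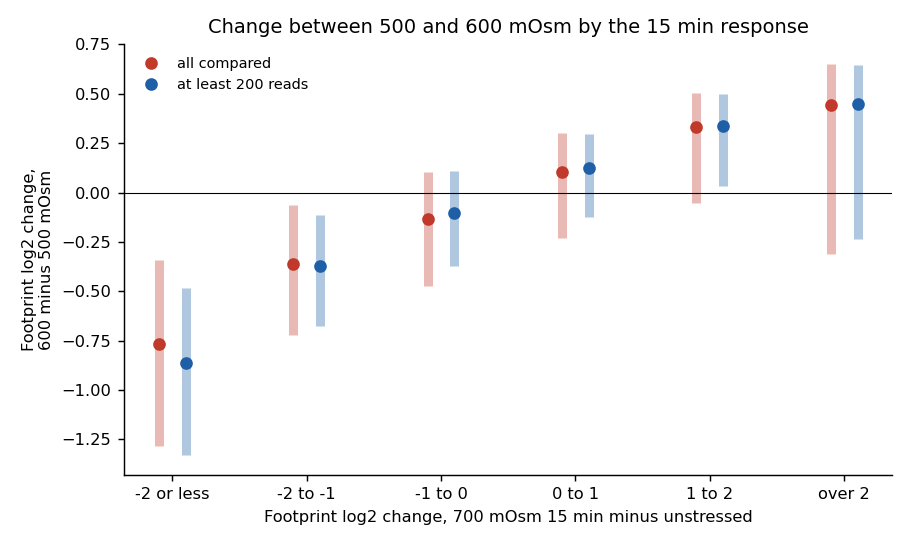
Footprint change between 500 and 600 mOsm at 2 h (vertical axis, log2) by class of the footprint change after 15 min at 700 mOsm against unstressed cells (horizontal axis, log2). Circles are medians and bars quartiles, for all compared transcripts (red) and those with at least 200 reads (blue); the medians climb from -0.77 to 0.44 over all transcripts.

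The longest transcripts broke that resemblance. After 15 min at 700 mOsm, 319 transcripts with over 1600 codons were 2-fold higher, yet between 500 and 600 mOsm their median footprint change was -0.56, with 78 2-fold lower and 4 higher. The 409 transcripts with up to 200 codons that were 2-fold higher after 15 min had a median of 0.48, with 3 lower and 14 higher. At 400 to 800 codons the 232 such transcripts were at 0.44, and at 800 to 1600 codons the 209 were at -0.17. In the reads themselves, transcripts over 1600 codons took 13.1% and 13.0% of the footprint reads after 15 min at 700 mOsm, against 3.99% and 4.00% in unstressed cells. Among transcripts that were 2-fold lower after 15 min, the medians spanned a narrower range. They were -0.55 up to 200 codons, -0.63 at 200 to 400 and at 400 to 800, and -0.75 at 800 to 1600, or from -0.54 to -0.83 in the well-read ones.

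The transcripts called in footprints were followed through the other conditions, each against unstressed cells. For the 1677 lower ones the median was -0.85 at 500 mOsm and -2.36 at 600 mOsm, values that share libraries with the comparison that chose them. At 700 mOsm for 2 h their median was again -2.36, with 1540 of 1677 2-fold lower (45.5% of all 8849 were). These libraries were shallow, with 732769 and 908076 footprint reads, and unlisted values count as 0, so part of that loss can come from depth. Among the 900 well-read ones the median was -2.16, with 824 2-fold lower, against 2085 of all 5845 well-read transcripts. After 15 min back in normal medium following 2 h at 700 mOsm the median of the 1677 was -0.44. The RNA of the same transcripts stood at 0.00, -0.09 and -0.35 at 500, 600 and 700 mOsm for 2 h. The 122 higher ones had footprint medians of -0.34 at 500 mOsm and 0.99 at 600 mOsm. At 700 mOsm for 2 h the median was 1.73, with 90 of 122 2-fold higher (16.6% of all), and after 15 min of return it was 0.73.

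Among the 42 well-read transcripts with 2-fold higher footprints, the largest change was that of ENSMUST00000087085, with 1648 codons. It had 0.700 and 1.15 scaled RPKM at 500 mOsm, from 17 and 28 reads, and 16.4 and 14.6 at 600 mOsm, from 259 and 193. Both libraries at 600 mOsm were above both at 500 mOsm, as the choice required, and the log2 change was 3.10. Its RNA was at most 0.154 scaled FPKM in the 4 libraries, from 17 to 29 reads, too low for the test. After 15 min at 700 mOsm its footprints stood at 48.5 and 48.6, but it was unlisted in both libraries after 2 h. In cells returned from 2 h at 700 mOsm its paired libraries disagreed, with 0 and 12.2 scaled RPKM after 15 min and 8.54 and 0 after 2 h. Its course with osmolarity therefore cannot be read. The second transcript, with 476 codons, had far more reads: 73.0 and 72.9 scaled RPKM at 500 mOsm and 423 and 449 at 600 mOsm, with no RNA change (log2 change -0.02, SE 0.09, limma adjusted p = 0.913). Its unstressed mean was 200.2 and its mean at 700 mOsm for 2 h was 123, so it was lowest of these 4 conditions at 500 mOsm and highest at 600 mOsm. The other transcripts among the 10 largest footprint gains changed by 1.38 to 2.35 on the log2 scale. All 10 lay above their unstressed level at 600 mOsm, and 8 lay below it at 500 mOsm. The same libraries chose these 10, so both counts are partly fixed by the choice.

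The largest loss of footprints among well-read transcripts was that of ENSMUST00000035101, with 584 codons. Its footprints were 18.6 and 20.7 scaled RPKM at 500 mOsm, from 160 and 179 reads, and it was unlisted in both libraries at 600 mOsm. If each of these libraries had at most 4 reads, a mean of 0.785 scaled RPKM, the level was at least 25-fold lower. RNA of the same transcript was 43.2 and 42.9 scaled FPKM at 500 mOsm and 7.16 and 6.2 at 600 mOsm (log2 change -2.52, SE 0.09, limma adjusted p = 1.29e-11). Both assays were lower at 600 mOsm, the footprints by more than the RNA if the ceiling of 4 reads holds.

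In 3 of the 10 largest losses the RNA did not pass the test. The fifth transcript, with 182 codons, had 87.6 and 88.8 scaled RPKM at 500 mOsm and 12.1 and 8.90 at 600 mOsm. Its RNA was 54.0 and 50.1, then 52.4 and 49.7 scaled FPKM (log2 change -0.03, SE 0.06, limma adjusted p = 0.798). The ninth, with 318 codons, had RNA at 1543 and 1603 scaled FPKM at 500 mOsm and 1637 and 1648 at 600 mOsm. Its footprints went from 69.6 and 68.7 to 10.9 and 7.44. In unstressed cells it had 330.03 scaled RPKM, so the footprint level at 500 mOsm was already under the unstressed one. The 5 further transcripts with the largest drop in efficiency showed the same pattern. Their footprints at 500 mOsm were 0.20 to 0.38 of the unstressed level and at 600 mOsm 0.03 to 0.06, while their RNA at 600 mOsm was 0.87 to 1.55 of it. The RNA of 1 of the 5 passed the test, with a log2 change of -0.23 (SE 0.07, limma adjusted p = 0.0297). The 5 further transcripts with the largest gain in efficiency had footprints of 1.23 to 2.53 times the unstressed level at 600 mOsm and 0.69 to 0.99 times at 500 mOsm. The 500 and 600 mOsm libraries chose both sets of 5, so their ratios to unstressed cells are not independent of the choice.

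The largest RNA changes were falls, and the 10 largest came from transcripts whose RNA was higher at 500 mOsm than in unstressed cells or at 600 or 700 mOsm for 2 h. The RNA of ENSMUST00000003635, with 161 codons, was 659.6 and 706 scaled FPKM at 500 mOsm and 83.4 and 83.8 at 600 mOsm. The 2 osmolarities were far apart beside the spread of either pair (683 ± 32.8 and 83.6 ± 0.264, mean ± SD, n = 2 each). The log2 change was -3.01 (SE 0.06, limma adjusted p = 1.41e-14). Its footprints went with it, from 2425 and 2411 scaled RPKM to 246 and 239.9, so efficiency changed by -0.30 only. Its footprint mean in unstressed cells was 242, close to the 243 at 600 mOsm. Its unstressed RNA mean was 119.6, so the RNA at 600 mOsm was 0.699 of the unstressed level.

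That shape was shared by all 10 of the largest RNA falls. Their RNA at 500 mOsm was 2.48 to 19.5 times the unstressed level, with a median of 4.76, and at 600 mOsm 0.49 to 2.53 times, with a median of 0.75. The 10 were chosen by their fall from 500 mOsm, and the same libraries enter these ratios, so the shape is partly fixed by the choice. Footprints showed the same peak, with medians of 6.48 and 1.08 times the unstressed level. In the sixth of them, with 658 codons, the footprints moved less than the RNA. RNA went from 50.7 and 52.0 to 10.1 and 11.2 scaled FPKM and footprints from 8.77 and 7.50 to 6.52 and 3.79 scaled RPKM. Of the 28 transcripts whose RNA fell at least 2-fold, 24 were at least 2-fold above unstressed cells at 500 mOsm, where 0.442% of all tested transcripts were, and 2 were so at 600 mOsm. The 500 mOsm libraries enter both comparisons, so that count is partly fixed by the choice. At 2 h of return to normal medium after 2 h at 700 mOsm, libraries that entered the choice only through the shared scaling, filter and variance estimate, 20 of the 28 were again at least 2-fold above unstressed cells, against 2.75% of all 9275. At 700 mOsm for 2 h none of the 28 was 2-fold higher and 2 were lower, against 22 and 626 (6.75%) of all 9275, so neither count sets the 28 apart. The 28 had a median of 327 codons, against 656 for all 964.

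The broad set of 964 fallen transcripts looked different from its extreme. Their median RNA change against unstressed cells was -0.04 at 500 mOsm and -0.39 at 600 mOsm, which share libraries with the comparison, and -0.91 at 700 mOsm for 2 h, where 411 of the 964 were 2-fold lower (6.75% of all tested). After 15 min at 700 mOsm it was -0.60, and after 2 h of return from the 2 h exposure 0.01. They had a median of 2146 non-coding nt, against 1066 for transcripts that passed the test in no direction, and 775 of the 964 had both 600 mOsm footprint libraries below both 500 mOsm libraries, as had 51.8% of all 9275.

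Rises in RNA were fewer and smaller. The largest on the log2 scale used here was that of ENSMUST00000038099, with 213 codons. It had 2.34 and 2.26 scaled FPKM at 500 mOsm and 6.18 and 7.12 at 600 mOsm. The pairs did not overlap (2.30 ± 0.0623 and 6.65 ± 0.665, mean ± SD, n = 2 each), and the log2 change was 1.21 (SE 0.15, limma adjusted p = 4.44e-05). Unstressed cells had 10.1 and 12.0, so both stressed levels were under the unstressed one. Its footprints were 14.4 and 15.0 scaled RPKM in unstressed cells, but it was listed in 1 library at 500 mOsm, with 5 reads, and in none at 600 mOsm. The 10 largest rises were chosen by these same libraries, so their place against unstressed cells is partly fixed. Their median level at 500 mOsm was 1.79 scaled FPKM, where the 1 added before the log2 shrinks a change. As plain ratios of the means, the first rose 2.89-fold and the third 4.02-fold. Of the 10, 7 were likewise under the unstressed level at 500 mOsm, and 9 were above it at 600 mOsm. The ninth differed from these. This transcript of 2603 codons had 93.4 and 97.3 scaled FPKM at 500 mOsm and 190.5 and 192 at 600 mOsm, after 31.5 in unstressed cells and with 232 at 700 mOsm for 2 h. Its RNA increased at each step, while its footprints changed by 0.24 on the log2 scale. In the tenth, with 357 codons, the assays moved apart. RNA went from 28.4 and 27.4 to 52.6 and 59.5 scaled FPKM and footprints from 60.1 and 65.5 to 36.6 and 42.2 scaled RPKM.

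**Figure D5:**
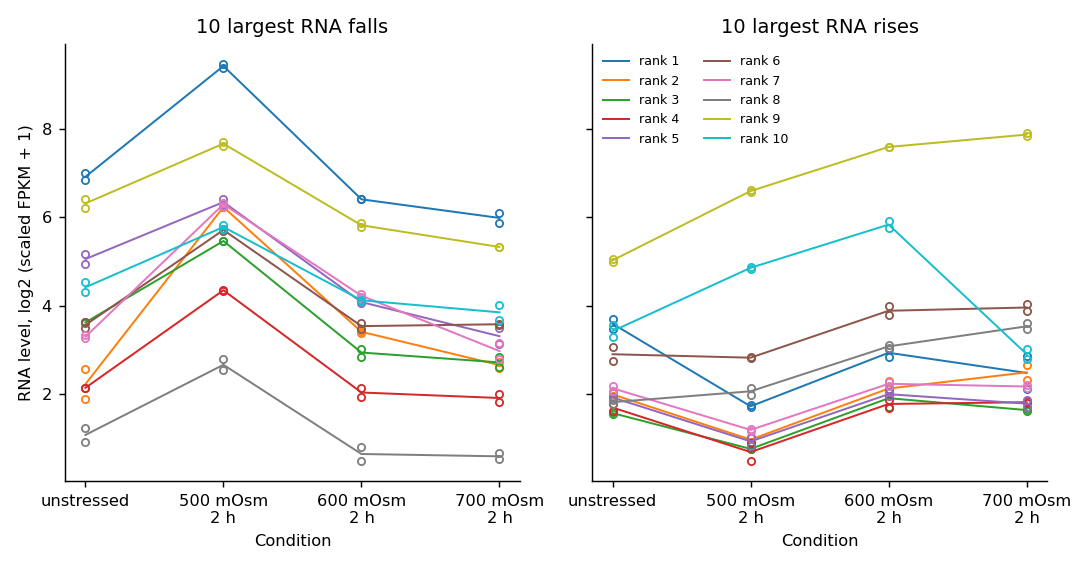
RNA level (log2 of scaled FPKM + 1) of the transcripts with the 10 largest RNA falls (left) and rises (right) between 500 and 600 mOsm, in unstressed cells and at 500, 600 and 700 mOsm for 2 h. Open circles are libraries and lines join pair means. All 10 falls peak at 500 mOsm, and 7 of the 10 rises dip there below unstressed cells. The 500 and 600 mOsm libraries also chose these transcripts, so both shapes are partly fixed by the choice.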

How the data were processed

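The authors deposited 1 list per library, with RPKM for footprints (fragments of 28 to 30 nt, per the labels' protocols) and FPKM for RNA. Per the submitters' processing notes, cutadapt, Bowtie, STAR and the build GRCm38 were used. Which tool did what, the annotation and the counting were not given in the sources used here. Reads, lengths and totals were solved from the steps of the deposited RPKM and FPKM, with 100% of values whole within a relative tolerance of 1e-09. Coding length stayed unresolved for 158 of 11037 footprint transcripts, 1 of them among those compared.

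Library factors were median ratios to a geometric mean, over transcripts detected in each of the 18 libraries of an assay and averaging 10 or more (4619 for footprints, 5705 for RNA). Unlisted values were 0. Transcripts averaging 2 or more scaled units over the 18 libraries were kept, 8849 of 11037 for footprints and 9275 of 17469 for RNA. RNA was fitted with limma 3.58.1 in R 4.3.3, using 9 condition means from 18 libraries, a weight per condition, a mean-variance trend and two-sided tests. Efficiency is the footprint minus the RNA log2 change. The scripts were tested on simulated data. The comparison, its classes and its lists were chosen with earlier results of these data known. The rule for single transcripts took the 10 largest RNA changes each way past the test, the 10 largest footprint changes each way with at least 200 reads over the 4 libraries, and the 5 largest further efficiency changes each way. For RNA and footprints, libraries of the 2 osmolarities had to stand apart.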

Additional observations from a re-analysis of the deposited data

How the results depend on the processing

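Of the alternatives tried on RNA, values as deposited, scaling factors from the 4 libraries, a pseudocount of 0.25, no filter on low values, equal weights, a fit on the 4 libraries and voom on recovered reads kept both counts within 1.5 times, at 407 to 603 risen and 758 to 1029 fallen. Leaving out 1 library gave 238 to 376 risen and 557 to 724 fallen. Between 500 and 600 mOsm, the differences of replicate 1 minus 2 in RNA correlated at 0.01 (Pearson, across transcripts). This value cannot settle whether the replicate numbers paired the samples. With the replicate block 679 transcripts rose and 1020 fell. For footprints, the counts without 1 library were 134 to 147 higher and 1657 to 1808 lower. With at least 200 reads they were 42 and 900. Taking the 2 libraries of a condition as replicates in limma called 1484 higher and 3572 lower, and 1489 and 3523 with the replicate block. Efficiency was 2-fold higher in 73 transcripts with factors from the 4 libraries, 70 with a pseudocount of 0.25, 114 without the filter and 22 with at least 200 reads, where 801 were lower. Without 1 library it was 58 to 70 higher and 1420 to 1562 lower. The coding-length medians of the footprint change kept their sign in each alternative, but 3 of the 6 moved by over 1.5 times: 100 to 200 codons from 0.11 to between 0.06 without the filter and 0.19 with factors from the 4 libraries, 200 to 400 codons from -0.15 to -0.08 with those factors and -0.05 with at least 200 reads, and over 1600 codons from -0.53 to -0.34 without the filter. The RNA changes of ENSMUST00000003635 and ENSMUST00000038099 kept their calls in each alternative. Lists of named genes were not run, as no identifier matched a name. Footprint depth at 600 mOsm limits what is listed. Groups of 2 allow no check for outliers.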
